A study of Homo sapiens with 3 samples.

Results

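Cluster 12 is a group of 185 cells among the 19237 annotated cells of this series, or 1 of the 14 transcriptional clusters that the authors drew by shared nearest neighbours at a resolution of 0.8 and deposited as a label for each cell. Its members are all cells carrying that label. CAMA-1, a long-established breast cancer cell line that expresses the estrogen receptor, was grown as spheroids from 2000 plated cells, and all spheroids received 1 µM ribociclib, an inhibitor of the cell cycle kinases CDK4 and CDK6, in DMSO until harvest at day 11. The drug-sensitive lineage carried the fluorescent transgene mVenus, and the lineage made resistant by long culture with ribociclib carried mCherry. The spheroids were 100% sensitive (sensitive monoculture), 50% sensitive and 50% resistant (coculture), or 100% resistant (resistant monoculture). Each condition was measured in 1 droplet 3' single-cell RNA library of cells that had been viably frozen and thawed, untreated spheroids were not analysed here, and each lineage was a single labelled line.

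Because the clusters were made from the same counts that describe them, and because no condition has a second library, the values below are descriptions without p-values. UMIs (unique molecular identifiers, each marking 1 captured RNA molecule) were summed over the cells of a group and are given as CPM (UMIs of the gene per 1000000 UMIs of the group), with exact Poisson 95% intervals in parentheses. These intervals, and the exact binomial intervals of shares, cover counting error only. Log2 ratios were computed on CPM + 1.

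Breast cancer cells of the luminal type keep features of the secretory cells that line the mammary duct, including simple epithelial keratins and secreted proteins such as secretoglobins and trefoil factors. Cells adjust their sterol supply through SREBP transcription factors, which sit in the endoplasmic reticulum membrane and, when sterol is low, move to the nucleus and switch on the enzymes of cholesterol synthesis and several enzymes of fatty acid synthesis. The actin cytoskeleton, with its crosslinkers, myosin light chains and monomer-binding proteins, sets cell shape and contacts, and its genes commonly move together in cultured cells.

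Cluster 12 was made almost wholly of sensitive cells. It held 156 of 3329 sensitive cells in monoculture, 4.69% (3.993 to 5.46), and 27 of 2059 in coculture, 1.31% (0.866 to 1.9022). Among resistant cells it held 1 of 6292 in coculture, 0.0159% (0.000402 to 0.0885), and 1 of 7557 in monoculture, 0.0132% (0.000335 to 0.0737). The sensitive monoculture therefore supplied 84.3% of its cells, against 95.3% of cluster 4 and 90.9% of cluster 8, the larger clusters of 2040 and 749 cells that hold most of that culture. As a share of the sensitive cells, cluster 12 fell less between the cultures than its neighbours did. Cluster 4 went from 58.4% of sensitive cells in monoculture to 4.08% in coculture and cluster 8 from 20.5% to 2.14%, while sensitive coculture cells lay mostly in clusters 3 (1087 cells) and 7 (617 cells). With 1 library each, the effect of coculture and that of the library cannot be told apart. The single resistant coculture cell had 17031 UMIs with 1 mCherry UMI, and the single resistant monoculture cell had 19755 UMIs and no UMI of either transgene. These 2 cells are left out of the comparisons below, except the one with all other annotated cells and values over all members or pooled libraries.

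The lineage label was checked against the transgenes. mVenus UMIs were found in 113 of the 156 monoculture members (72.4%, 64.7 to 79.3), against 68.0% of cluster 4 cells and 65.9% of cluster 8 cells in that library, where median depth was 24248, 29523 and 21421 UMIs per cell. No member of the 156 had an mCherry UMI, which allows up to 1.92% of cells with a detected mCherry UMI. Detection is incomplete, since mCherry UMIs were found in 72.9% of resistant monoculture cells, so the limit is not one on cells of the other lineage. All annotated coculture cells had a UMI of the transgene of their label and none lacked one, so the coculture label appears to rest on the transgene and is not checked by it. In monoculture the members had 4428 genes per cell (median), between cluster 8 (4139) and cluster 4 (4726), and a mitochondrial share of UMIs of 19.99%, against 21.3% in both neighbours. In coculture the members were shallower than the other sensitive cells, with 25372 against 34260.5 UMIs, and had a higher mitochondrial share, 21.3% against 17.3%. The authors had removed predicted doublets before they annotated the cells, and a score above 0.25, computed anew, was found in 1 of the 156 members. Pairs of libraries shared 34 to 60 barcodes, and 2 members carried a barcode that also occurs in another library.

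Cluster 12 had the RNA of luminal breast epithelium. KRT19 was at 3838 CPM in the monoculture members and 3678 in the coculture members, KRT8 at 1366 and 1544, KRT18 at 1553 and 1751, the adhesion molecule EPCAM at 224.5 and 191, and the luminal transcription factor GATA3 at 357.5 and 375. Of 22 measured luminal markers, 3 were higher and 4 lower than in the other sensitive monoculture cells by 1.5-fold or more, beside 8.65% and 6.55% of all genes, with a median log2 ratio of -0.032. The lower ones included the keratins themselves, since KRT8 was at 2063 and KRT18 at 2754 CPM in the other monoculture cells, where KRT19 was at 3664. SPDEF, a factor of secretory epithelium, was at 334 against 201 CPM, CDH1 (E-cadherin) at 34.2 against 16.6, and ERBB3 at 118 against 66.5, while AGR2 was at 99.4 against 174. ESR1, the estrogen receptor, was low in all sensitive groups, at 14.1 CPM in cluster 12 and 15.8 in the other monoculture cells. Defining markers of other cell types were at or near 0. In the monoculture members, 13 of 16 immune markers had no UMI and the list summed to 2.05 CPM, 8 of 10 fibroblast markers had none (8.22 CPM in sum), 5 of 7 endothelial markers had none (0.514 CPM) and 5 of 6 red cell markers had none (7.96 CPM). Basal and myoepithelial markers summed to 36.5 CPM, against 55.4 in the other monoculture cells, and mesenchymal genes to 29.0 against 68.6.

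Members were nearly all in G1, the phase before DNA synthesis. The deposited phase was G1 in 155 of 156 monoculture members (99.4%, 96.5 to 100.0), against 95.5% of cluster 4, 99.7% of cluster 8 and 88.5% of all other sensitive monoculture cells. In coculture it was G1 in 26 of 27 members (96.3%, 81.0 to 99.9), against 54.7% of the other sensitive cells. When every cell was thinned to 5000 UMIs and phases were called anew with scanpy, the shares were 86.5% for the monoculture members, 85.9% for cluster 4 and 92.1% for cluster 8, so cluster 12 lay between its neighbours. These calls differ from the deposited ones in both depth and calling procedure. The mitotic regulators UBE2C and BIRC5 were at 10.3 and 4.62 CPM in the monoculture members, against 70.6 and 38.8 in all other cells of that culture. They were at 32.5 and 12.8 in cluster 4, and at 5.59 and 2.06 in cluster 8. The whole G2M list summed to 1524 CPM in the members, 1534 in cluster 4, 1184 in cluster 8 and 2073 in all other cells of that culture. Of its measured genes, 5 of 12 were higher than in cluster 8 and none lower, beside 10.1% and 7.68% of all genes. Against all other cells of that culture 1 of 20 was higher and 10 were lower, beside 8.65% and 6.55%. Genes were measured where the mean of both groups reached 20 CPM. UBE2C and BIRC5, for example, entered only through the other cells, so the lower count partly follows from the filter. Among the drug's own targets, CDK4 was at 79.9 CPM (71.2 to 89.3) in cluster 12, 104 in cluster 4 and 80.9 in cluster 8, and CDK6 had no UMI in the members and at most 0.466 CPM in the neighbours. The inhibitor gene CDKN2A was lower, at 26.7 CPM (21.8 to 32.4) against 59.5 and 56.6, and the pocket protein gene RBL2 was higher, at 51.4 (44.5 to 59.0) against 28.3 and 31.5.

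Genes were compared where the mean of both groups reached 20 CPM, and were counted where they differed by 1.5-fold or more. Against cluster 4, 453 of 4820 genes were higher in cluster 12 (9.40%) and 292 were lower (6.06%). Against cluster 8, 502 of 4959 were higher (10.1%) and 381 lower (7.68%), and against all other sensitive monoculture cells 420 of 4855 were higher (8.65%) and 318 lower (6.55%). In coculture, 673 of 4713 genes were higher than in the other sensitive cells (14.3%) and 611 lower (13.0%), in a sum of 711711 UMIs over the 27 members, against 3893770 UMIs over the 156 in monoculture. Set beside all other annotated cells of the series, 758 of 4781 genes were higher (15.9%) and 501 lower (10.5%). The median of all genes was not at 0 but at 0.094 against cluster 4, 0.076 against cluster 8 and 0.072 against the other monoculture cells. Scaling by trimmed means (TMM) moved it to -0.040, -0.00088 and -0.032, and turned the split of higher to lower genes to 241 and 488 against cluster 4, 349 and 495 against cluster 8, and 255 and 476 against the other cells, so the balance of directions rests on the scaling. Over genes of at least 50 CPM, the root mean square log2 difference of cluster 12 within the monoculture library was 0.468 from cluster 4, 0.522 from cluster 8, 0.583 from cluster 3 and 0.844 from cluster 7. Clusters 4 and 8 were 0.375 apart, and the smaller UMI sum of cluster 12 adds counting error to its own distances.

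**Figure D1:**
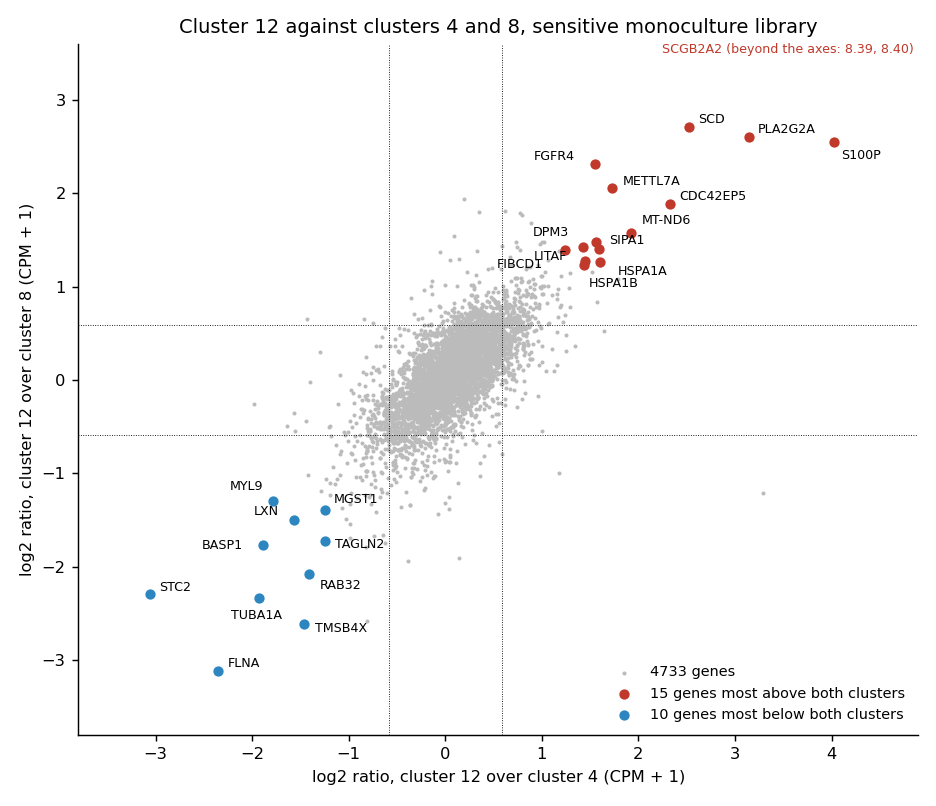
Log2 ratio of CPM + 1 of cluster 12 over cluster 4 (horizontal axis) and over cluster 8 (vertical axis) for 4733 genes in the sensitive monoculture library, with dotted lines at 1.5-fold. Red points are the 15 genes that lie most above both clusters and blue points the 10 genes that lie most below both, and SCGB2A2, at 8.39 and 8.40, lies beyond the axes.

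Cholesterol genes were higher in cluster 12 than in both neighbours. Of 24 cholesterol synthesis and uptake genes, 18 were measured, and 11 were higher than in the other sensitive monoculture cells by 1.5-fold or more while 1 (SC5D) was lower, beside 8.65% and 6.55% of all genes. The list median was 0.81, against 0.072 for all genes. The filter takes the mean of both groups, so some genes entered only through their level in the members. These were HMGCS1, DHCR7 and SREBF2, at 14.2, 14.4 and 14.9 CPM in the other monoculture cells. Against cluster 4 it was 0.80, with 11 of 18 genes higher and 1 lower, beside 9.40% and 6.06% of all genes. Against cluster 8 it was 0.73, with 11 of 17 higher and 1 lower, beside 10.1% and 7.68%, and in coculture 0.89, with 12 of 19 higher and none lower, beside 14.3% and 13.0%. The same filter effect holds in these comparisons. HMGCS1, MVK, SREBF2 and ACAT2 were at 18.0, 16.7, 17.6 and 18.9 CPM in cluster 8 and counted as higher there. HMGCS1, DHCR7 and SREBF2 were at 13.7, 14.6 and 15.3 in cluster 4, and at 14.2, 19.6 and 14.7 in the other sensitive coculture cells. Under TMM scaling 11 were higher and 1 lower, with a median of 0.71.

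SCD, the desaturase that makes monounsaturated fatty acids and is counted below with the fatty acid genes, stood at 100.2 CPM (90.5 to 111) in the monoculture members, 16.6 in cluster 4, 14.4 in cluster 8 and 16.1 in all other cells of that culture. In the coculture members it was at 201 (169 to 237), against 42.2 in the other sensitive coculture cells. Members were thus higher in both libraries, by 2.56 and 2.23 on the log2 scale, and the other coculture cells were in turn above the other monoculture cells. At an even depth of 10000 UMIs per cell, SCD was found in 53.8% of the monoculture members and 14.1% of the other cells. With the libraries pooled, among clusters of at least 20 cells no other cluster came closer than 1.07 on the log2 scale to cluster 12 for SCD and 1.03 for HMGCS1, which condenses acetyl units at the start of the pathway.

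HMGCS1 was at 43.4 CPM (37.1 to 50.5) in monoculture members and 40.7 (27.3 to 58.5) in coculture members, against 14.2 in the other sensitive cells of either culture. Several further enzymes of the pathway followed: the mevalonate enzymes MVK (47.5 against 22.2 CPM) and MVD (56.0 against 28.8), the isoprenoid enzymes IDI1 (137 against 70.2) and FDPS (370.3 against 221), and SQLE, which oxidises squalene (181 against 87.4). Their coculture values were 50.6 against 22.3 for MVK, 88.5 against 34.3 for MVD, 180 against 66.4 for IDI1, 384 against 233 for FDPS and 254 against 88.9 for SQLE. FDFT1 was within 1.5-fold in monoculture (56.0 against 40.2) and higher in coculture (75.9 against 43.8). ACAT2 was level in monoculture (32.1 against 30.9) and below the other cells in coculture (30.9 against 42.8). Late steps were mixed. MSMO1 (65.2 against 37.4), TM7SF2 (58.6 against 29.8) and DHCR7 (26.97 against 14.4) were higher, NSDHL (27.7 against 23.8) was within 1.5-fold, and SC5D was at 21.6 against 33.4 CPM in monoculture and 21.1 against 21.5 in coculture. The regulators SREBF1 and SREBF2, which encode the SREBP factors, were at 36.7 against 16.1 and 27.5 against 14.9 CPM in monoculture, and at 47.8 against 22.5 and 43.6 against 14.7 in coculture.

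Of 13 measured fatty acid and lipid storage genes, 4 were higher and 1 lower in monoculture, beside 8.65% and 6.55% of all genes. In coculture 7 were higher with none lower among those of at least 20 CPM, beside 14.3% and 13.0%. SCD and SREBF1, each at 16.1 CPM in the other monoculture cells, passed the filter there only through the members. The same was true in coculture of ACSL1, at 16.0 CPM in the other sensitive cells. FASN, which builds palmitate, was at 146 CPM (134 to 158) in monoculture members against 67.9, and ACLY, which supplies its acetyl-CoA, at 120.2 against 64.6. ACSL1 and ACSL3, which activate fatty acids, were at 41.6 against 28.4 and 147 against 101 CPM in monoculture, within 1.5-fold, and at 47.8 against 16.0 and 152 against 67.4 in coculture. HILPDA, a protein of lipid droplets, was at 144 against 114 CPM and in coculture at 167 against 101. In monoculture DGAT1, PLIN3 and CPT1A, of lipid storage and oxidation, differed little, with DGAT1 at 49.3 against 45.2, PLIN3 at 63.7 against 57.0 and CPT1A at 51.6 against 47.4 CPM. The fatty acid-binding protein gene FABP7 went the other way, at 450.5 CPM (430 to 472) in cluster 12, 537 in cluster 8 and 1775 in cluster 4. FABP7 was patchy: 8 of the 156 members held 67.8% of its UMIs in the cluster.

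**Figure D2:**
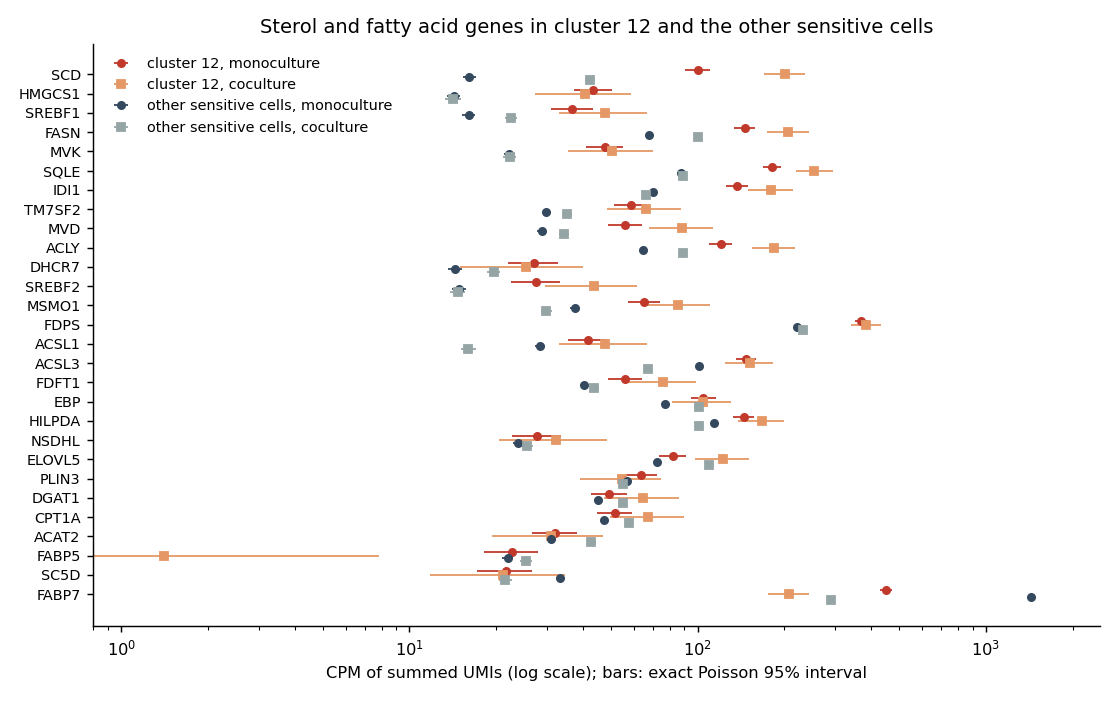
CPM on a log scale of 28 sterol and fatty acid genes in cluster 12 (red circles for monoculture, orange squares for coculture) and in the other sensitive cells (dark circles, grey squares), with exact Poisson 95% intervals. The members lie to the right of the other cells of their own culture from SCD (100.2 against 16.1 CPM in monoculture) down to the genes that differ little. SC5D and FABP7 at the bottom lie to the left in monoculture, and FABP7 and ACAT2 (30.9 against 42.8 CPM) lie to the left in coculture. FABP5 also lies to the left in the coculture members, where it rests on 1 UMI.

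The sterol pattern was spread over the cluster and not held by a few cells. The summed cholesterol list was above the median of cluster 4 in 134 of 156 monoculture members (85.9%), against 41.1% of cluster 8 cells, and in 25 of 27 coculture members (92.6%), against 61.3% of the other sensitive coculture cells. The median member had 1302 CPM of these genes in monoculture and 1674 in coculture, against 801 in cluster 4, 729 in cluster 8 and 874 in the other sensitive coculture cells. Clusters overlapped: monoculture members ran from 402 to 4993 CPM, cluster 4 cells from 126 to 4215 and cluster 8 cells from 55.4 to 7818. The summed fatty acid and lipid storage list, which includes FABP7, did not have this shift from cluster 4 in monoculture. It was above the cluster 4 median in 48.1% of monoculture members, with medians of 1209 and 1225 CPM, and in 17.9% of cluster 8 cells. In coculture it was above that level in 18 of 27 members (66.7%, median 1416 CPM), against 23.8% of the other sensitive cells (median 919). Its sum in monoculture was 1491 CPM in the members and 2466 in cluster 4, of which FABP7 alone made 450.5 and 1775. Gene by gene, 12 of its 13 measured genes were above 0 on the log2 scale against cluster 4. Their median was 0.31, beside 0.094 for all genes.

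Many actin and adhesion genes were lower than in the other sensitive cells. Of 24 measured members of the cytoskeleton list, none was higher and 11 were lower than in the other sensitive monoculture cells by 1.5-fold or more (6.55% of all genes were lower), with a median log2 ratio of -0.56. Against cluster 8 it was 14 lower (all genes 7.68%) with a median of -0.84, against cluster 4 11 lower (6.06%) with -0.51, and in coculture 7 lower and 2 higher of 23 (13.0% and 14.3%) with -0.23. Against all other annotated cells, most of them resistant, the list median was near that of all genes, at 0.066 against 0.093. By count the list still leaned lower: 1 of 23 genes was higher and 5 were lower, beside 15.9% and 10.5% of all genes. TMM scaling gave 13 lower and a median of -0.66 in monoculture. FLNA, which crosslinks actin filaments, stood at 41.3 CPM (35.2 to 48.3) in the monoculture members, 215 in cluster 4 and 366 in cluster 8, and at 47.8 (33.1 to 66.8) in the coculture members against 178 in the other sensitive coculture cells. Both libraries put it 1.88 or more below on the log2 scale. TMSB4X, which binds actin monomers, was at 1042 CPM (1010 to 1075) against 2874 and 6397 in clusters 4 and 8, and the myosin light chain gene MYL9 at 59.1 (51.7 to 67.2) against 206 and 146. The alpha-tubulin gene TUBA1A was at 7.96 (5.41 to 11.3) against 33.0 and 44.1, and TAGLN2, which binds actin, at 123 (112.5 to 135) against 295 and 409. TUBA1A met the filter in monoculture only through the other cells. In coculture, at 4.22 against 34.2 CPM, it fell short of the filter and was not counted. ACTB and ACTG1, the cytoplasmic actins, were at 1465 and 649 CPM against 2594 and 1195 in cluster 4, and the lectin LGALS1 at 1732 against 4074.

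Some genes of the list did not follow. S100A6 was at 8152 CPM in monoculture members against 5905 and at 8460 in coculture members against 5560. The lectin gene LGALS3 was at 464 against 368 in monoculture and 360 against 188 in coculture, and these were the 2 higher genes there. EZR, TPM4 and ACTN4 were within 1.5-fold in both cultures. ANXA2 and S100A10, which form a membrane complex, were at 476 and 758 CPM in monoculture members against 969 and 1541, but at 510 and 710 in coculture members against 597.5 and 762, where the other cells were themselves lower. Cell by cell, the summed list was above the cluster 4 median in 29 of 156 monoculture members (18.6%), against 55.7% of cluster 8 cells, and in 2 of 27 coculture members (7.41%), against 25.1% of the other sensitive coculture cells. Medians in coculture were 18794 CPM in the members and 20876 in the others. The order of the clusters was thus 8 above 4 above 12 for FLNA and TMSB4X, and the ranges overlapped.

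SCGB2A2, mammaglobin-A, a small secreted protein of mammary epithelium encoded on chromosome 11 (62037630 to 62040632, GRCh37), had the largest ratio to both neighbours of any gene compared, and it came from few cells. It was at 698 CPM (672 to 725) in the monoculture members, 1.09 in cluster 4 and 1.06 in cluster 8, and at 2259 (2150 to 2373) in the coculture members, against 9.96 in the other sensitive coculture cells. Only 36 of the 156 monoculture members had a UMI, and 17 cells with 10 or more UMIs, up to 570, held 97.9% of the total. In coculture 6 of 27 members with 10 or more UMIs, up to 915, held 99.0%. Outside cluster 12, cells with 10 or more UMIs were 1 of 3173 sensitive monoculture cells, 6 of 2032 sensitive coculture cells, 2 of 6291 resistant coculture cells and 4 of 7556 resistant monoculture cells. Single UMIs were found more widely, in 2.47% of cluster 4 cells and 2.35% of cluster 8 cells, a level set beside which 23.1% of monoculture members is high (19.9% against 0.720% and 1.47% at an even depth of 10000 UMIs). Its partner secretoglobin SCGB1D2 was at 10.0 CPM in monoculture members against 0.162 in the other cells of that culture, and at 22.5 against 0.484 in coculture.

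SCD and HMGCS1 were about as high in the members without much SCGB2A2 as in the 17 rich monoculture members. The choice of these cells was made after their values were seen. SCD was at 91.9 CPM in them and 101 in the other 139 members, HMGCS1 at 44.7 and 43.3, MT-ND6 at 1090 and 879 and DPM3 at 179 and 184. FLNA was at 19.9 and 43.8 CPM, both below clusters 4 and 8. S100P, a calcium-binding protein, was at 760 CPM in the 17 and 74.2 in the 139, and the hair keratin gene KRT81 at 320.3 and 6.87. The coculture members did not show the same split for S100P (121 CPM in the 6 rich cells and 656 in the other 21) or KRT81 (6.37 and 23.4). Without the cells rich in SCGB2A2, an alternative chosen after seeing the data, 441 genes were higher and 281 lower than in cluster 4, 498 and 378 against cluster 8, and 12 of 18 cholesterol genes were higher than in the other monoculture cells.

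S100P and PLA2G2A, a secreted phospholipase, were also uneven. In the monoculture members 8 cells held 81.4% of S100P UMIs and 43.7% of PLA2G2A UMIs, against 23.3% for SCD and 23.1% for HMGCS1. S100P was at 145 CPM (133 to 158) against 7.95 in cluster 4 and 24.0 in cluster 8, but reached 538 (486 to 595) in the coculture members and 71.6 in resistant monoculture cells. PLA2G2A was at 94.0 (84.6 to 104) against 9.73 and 14.6, and at 59.0 (42.5 to 79.8) in coculture members against 1.10 in the other sensitive coculture cells. It had a UMI in 33.3% of monoculture members and 7.70% of the other cells at even depth.

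**Figure D3:**
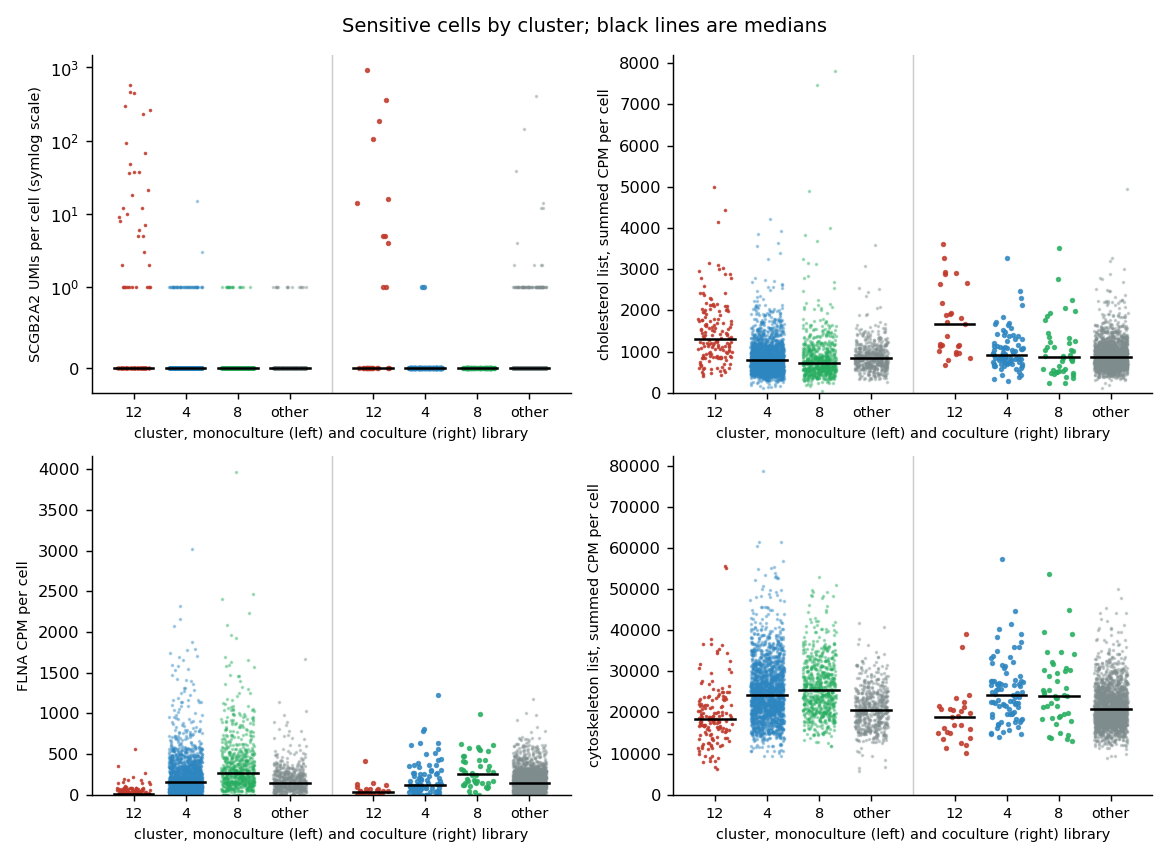
Values of single sensitive cells in clusters 12, 4, 8 and all others, with the monoculture library left and the coculture library right of the grey line in each panel, and black lines at the medians. SCGB2A2 UMIs (symmetric log scale) reach 570 and 915 in a few cluster 12 cells while the median is 0, the cholesterol list (summed CPM) is shifted upward across the cluster, and FLNA and the cytoskeleton list (CPM) are shifted downward with overlap.

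The remaining genes that stood above both neighbours had varied roles. FGFR4, a fibroblast growth factor receptor, was at 150.2 CPM (138 to 163) in monoculture members, 50.7 in cluster 4 and 29.4 in cluster 8, and at 96.9 (75.4 to 123) in coculture members against 27.9. LITAF, a protein of endosomal membranes, was at 244 (228 to 260) against 89.1 and 103, and in coculture at 211 against 88.0. DPM3, a subunit of the enzyme that makes dolichol phosphate mannose, was at 183 (170.2 to 197) against 67.7 and 67.4, and in coculture at 239 against 103. Each of these genes was found in more than 68% of the monoculture members at even depth, with FGFR4 in 68.6%, DPM3 in 78.8% and LITAF in 89.1%. Their UMIs were thus not confined to a few members, which does not show how widely the higher level was spread. CDC42EP5, an effector of the GTPase CDC42, was at 62.2 against 11.6 and 16.1 CPM, METTL7A, a methyltransferase-like protein of lipid droplets, at 53.4 against 15.5 and 12.1, SIPA1, which inactivates the GTPase RAP1, at 47.8 against 15.5 and 16.6, and FIBCD1, an acetyl-group receptor, at 79.6 against 33.0 and 29.7. Their coculture values were 63.2 against 15.6 for CDC42EP5, 60.4 against 10.7 for METTL7A, 52.0 against 15.3 for SIPA1 and 85.7 against 42.2 for FIBCD1. The values of these last 4 genes in the members differed little between the libraries, whereas FGFR4 was lower in coculture members by more than 1.5-fold. MACROD1, an ADP-ribose hydrolase, and ATP2C2, a calcium and manganese pump of the Golgi, were named for their lead over every other cluster, by 1.15 and 1.21 on the log2 scale, at 47.8 and 43.4 CPM in monoculture members.

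Below both neighbours lay STC2, a secreted glycoprotein of the stress and estrogen responses, at 23.6 CPM (19.0 to 29.0) against 204 in cluster 4 and 119.9 in cluster 8. In coculture it was at 14.1 CPM (6.74 to 25.8) in the members and 44.5 in the other sensitive cells. BASP1, a membrane protein, was at 202 (188 to 216) against 747 and 689, and LXN, a carboxypeptidase inhibitor, at 50.1 (43.3 to 57.6) against 151 and 144. RAB32, a small GTPase of membrane traffic, was at 14.6 against 40.5 and 65.0, and MGST1, a microsomal glutathione transferase, at 69.6 against 167 and 184. For LXN and MGST1 the coculture members, at 39.3 and 67.4 CPM, were within 1.5-fold of the other coculture cells, at 51.2 and 90.7.

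Stress genes went both ways against the other monoculture cells, in lists of 13 to 16 genes beside a background of 8.65% of all genes higher and 6.55% lower. HSPA1A, the inducible HSP70 chaperone, was at 870.4 CPM (841 to 900.2) in monoculture members, 287 in cluster 4 and 362 in cluster 8, and at 547 (494 to 604) in coculture members against 256. HSPA1B, at 74.7 against 26.8 and 30.4, is a near-identical copy, so the division of reads between them is uncertain. Other chaperones were lower or level: of 13 measured heat shock genes 2 were higher and 2 lower than in the other monoculture cells, with HSPD1 at 254 against 416 CPM and HSPA8 at 286 against 468. Of 13 immediate early genes, 2 were higher and 5 lower, JUND at 709.9 against 381 and KLF2 at 134 against 68.5, and JUN at 35.7 against 77.6, FOS at 41.1 against 73.2 and FOSB at 21.8 against 43.4. Of 13 genes of the ATF4 amino acid response, 3 were higher and 3 lower, among them NUPR1 at 843 against 425 and ATF5 at 14.4 against 41.3. Of 16 unfolded protein response genes, 1 was higher (HERPUD1, 394 against 209) and 1 lower (HSP90B1, 176 against 287). Against cluster 8, where 10.1% of all genes were higher and 7.68% lower, 0 of 14 immediate early genes were higher and 7 were lower, with a median of -0.57. There 2 of 15 ATF4 genes were higher and 5 lower, 3 of 13 heat shock genes were higher and 1 lower, and 3 of 16 unfolded protein response genes were higher and 1 lower. In coculture 14.3% of all genes were higher than in the other sensitive cells and 13.0% lower. Of 12 immediate early genes 2 were higher and 2 lower there, with a median of -0.017. The counts were 3 and 2 of 14 ATF4 genes, 2 and 4 of 13 heat shock genes, and 3 and 2 of 15 unfolded protein response genes.

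Of 22 estrogen-induced genes, 2 were higher and 6 lower than in the other monoculture cells, against the same 8.65% and 6.55%, with a median of -0.012. TFF3, a trefoil factor, was at 187 against 89.4 CPM, TFF1 at 2157 against 1861, GREB1 at 41.6 against 53.1, PDZK1 at 7.45 against 38.4 and CTSD at 411 against 787. In cluster 8 PDZK1 and CTSD were at 7.25 and 395 CPM, close to cluster 12. Against cluster 8, 8 of 21 were higher and 3 lower, beside 10.1% and 7.68%. Hypoxia response genes (1 of 11 higher, 1 lower), interferon response genes (0 of 9 in either direction) and p53 targets (1 of 6 higher, 1 lower) had few genes past the fold against the other monoculture cells. Against cluster 8, 4 of 12 hypoxia genes were higher and 1 lower, 3 of 10 interferon genes were higher and 1 lower, and of 9 p53 targets none was higher and 3 were lower.

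Within the mitochondrially encoded genes, MT-ND6 stood apart. It was at 900.4 CPM (871 to 931) in the monoculture members, 237 in cluster 4 and 302 in cluster 8, and at 1021 (949 to 1099) in coculture members against 534. MT-ND6 is the protein gene on the light strand of the mitochondrial DNA and lies opposite the end of MT-ND5, which was at 4757 CPM against 7331 and 6702. MT-ND2 was higher too (12976 against 7769 and 8006 CPM), MT-CYB was at 14833 against 21583 and 23082 CPM, and the 13 genes together made 191898 CPM in the members and 203063 in the other monoculture cells.

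Ribosomal protein genes and nuclear RNA separated cluster 12 from cluster 4 but not from cluster 8. Of 69 ribosomal protein genes, 13 were lower than in the other monoculture cells and none higher (median -0.26), 15 were lower than in cluster 4 and 1 lower than in cluster 8 (median 0.08), and 28 were lower in coculture (median -0.45). Of all genes, 6.55%, 6.06%, 7.68% and 13.0% were lower in these 4 comparisons. The nuclear long noncoding RNA MALAT1 was at 88946 CPM in monoculture members, 50511 in cluster 4 and 89513 in cluster 8, and at 76198 in coculture members against 34260 in the other sensitive cells. NEAT1, which builds paraspeckles, was at 5608 against 3375 and 5657. Cluster 8 thus had as much MALAT1 as cluster 12 while its cholesterol list summed to 879 CPM, against 1478 in cluster 12 and 871 in cluster 4. The part of MALAT1 and of depth in the differences from cluster 4 was not tested.

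**Figure D4:**
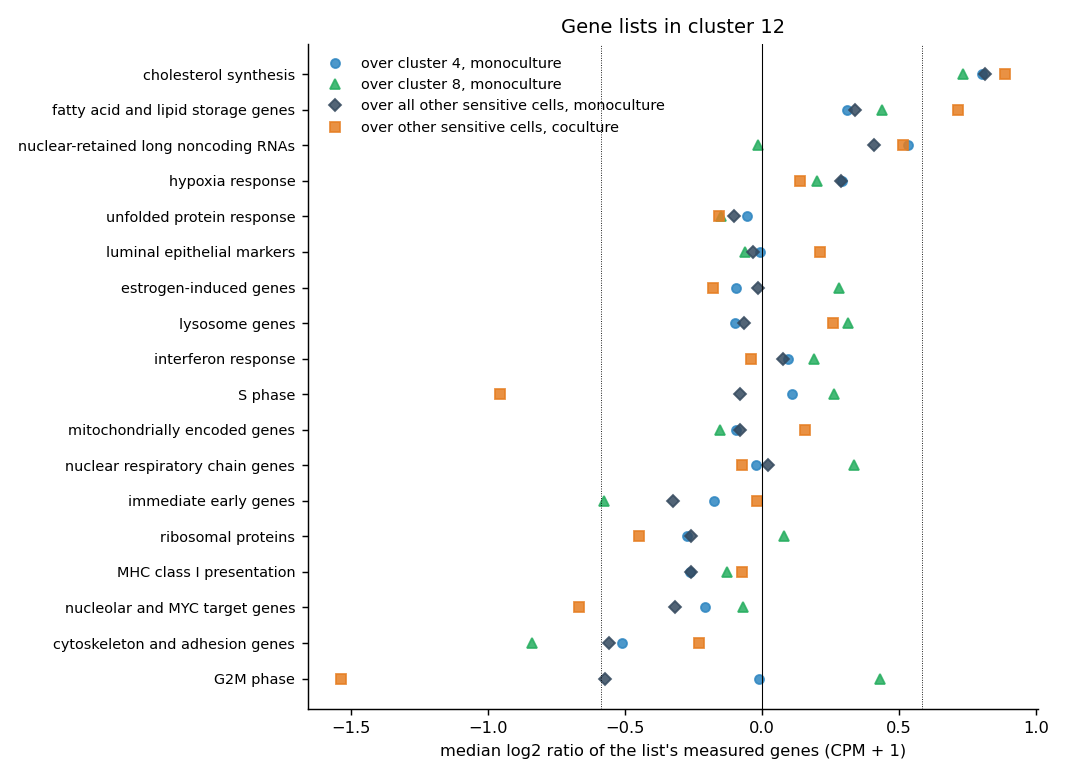
Median log2 ratio (CPM + 1) of the measured genes of 18 lists for cluster 12 over cluster 4 (circles), cluster 8 (triangles) and all other sensitive cells (diamonds) in monoculture, and over the other sensitive cells in coculture (squares), with dotted lines at 1.5-fold. The cholesterol list lies at 0.73 to 0.89 in the 4 comparisons and the cytoskeleton list at -0.84 to -0.23, while the ribosomal, nuclear RNA and G2M lists shift with the comparison.

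The members were also compared between the libraries. Over coculture and monoculture members, 219 of 4867 genes were higher in coculture by 1.5-fold (4.50%) and 403 lower (8.28%), with a median of -0.077, while among the other sensitive cells 228 of 4702 were higher and 262 lower (5.57%). This is a comparison of 27 cells in 1 library with 156 in another, in which the condition and the library cannot be told apart. Cholesterol genes were a little higher in coculture members, 2 of 21 past 1.5-fold and none lower, with a median of 0.21, and among the other sensitive cells the list median was 0.099, against -0.043 for all genes. In the members cytoskeleton genes were level, with a median of -0.0081. IFI6, an interferon-induced mitochondrial protein, was at 109.6 CPM (86.6 to 137) in coculture members and 32.4 (26.96 to 38.5) in monoculture members, but 8 of the 27 cells held 94.9% of its UMIs. TFF3 was at 556 against 187 CPM and S100P at 538 against 145, and both were also higher in the other coculture cells, at 375.0 and 40.1 CPM, than in the other monoculture cells, at 89.4 and 11.7. Lower in coculture members were CMBL, a hydrolase (52.0 against 120.4), EBAG9 (26.7 against 74.99), LURAP1L (52.0 against 135) and the amino acid transporter gene SLC7A8 (36.5 against 87.6). In the other coculture cells LURAP1L was at 46.1 CPM, about the level of the members there, SLC7A8 was lower still at 22.9 and EBAG9 was higher at 46.4.

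Position and base composition of the genes also went with the ratios. In 5 equal groups of genes from lowest to highest GC content, the median log2 ratio over the other monoculture cells was -0.08, 0.01, 0.07, 0.15 and 0.24, and in coculture it ran from -0.12 to 0.11. Cluster 8 over cluster 4 went the other way, from 0.07 to -0.07. Among chromosomes, genes on X were the lowest: 28 of 121 were lower in cluster 12 by 1.5-fold or more (23.1%, beside 6.55% of all genes) and 1 was higher, with 30 of 121 above 0. Their median was -0.24, or -0.34 relative to autosomal genes of like GC content, where the autosomes ran from -0.15 (chromosome 13) to 0.15 (chromosome 22). In coculture the same figure for X was -0.24, where chromosome 13 was at -0.23. Among the genes on X are FLNA and TMSB4X of the preceding account, the lysosomal enzyme gene GLA (12.6 against 45.9 CPM), the import factor gene TIMM8A (17.7 against 40.8) and the actin bundling gene PLS3 (20.8 against 46.4), and the exception was TSC22D3, a glucocorticoid-induced gene, at 69.9 against 35.7. TIMM8A, PLS3 and TSC22D3 were named after their values were seen. Without FLNA and TMSB4X, 119 genes on X made 1.39% of a member's UMIs at the median in monoculture, 1.76% in cluster 4 and 1.57% in cluster 8, and 1.57% of a coculture member's against 2.08% in the other sensitive coculture cells. This share was below the lower quartile of cluster 4 in 124 of the 156 monoculture members (79.5%), but also in 57.1% of cluster 8 cells. A low share was thus not particular to cluster 12 in that library. Over cluster 8, the 121 genes on X still had a median of -0.23 relative to autosomal genes of like GC content. In coculture the share was below the same quartile in 15 of the 27 members (55.6%), against 4.08% of the other sensitive cells. MALAT1 enters the denominator of all these shares.

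**Figure D5:**
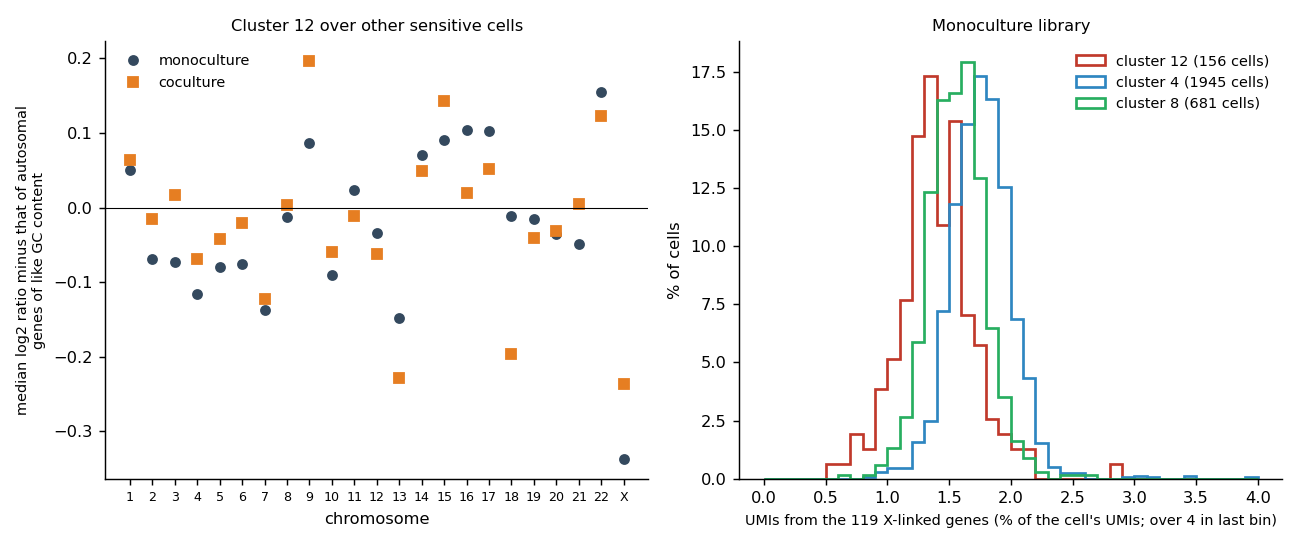
Left, median log2 ratio of cluster 12 over the other sensitive cells for the genes of each chromosome, minus the median of autosomal genes of like GC content (circles for monoculture, squares for coculture); X lies at -0.34 and -0.24. Right, the distribution over cells of the monoculture library of the share of UMIs from 119 genes on X (percent) in clusters 12, 4 and 8, with medians of 1.39, 1.76 and 1.57%.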

How the data were processed

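Per the paper's methods and the submitters' processing notes, the authors aligned reads to GRCh37 with Cell Ranger 3.0.2. The deposited values are raw UMI counts for every barcode. They kept cells with 3000 to 7000 genes, 2000 to 60000 UMIs and under 30% mitochondrial UMIs, removed doublets predicted by scrublet (0.25), state that they retained cells with 2 or more UMIs of a transgene (annotated monoculture cells nonetheless include ones without any), clustered the cells in Seurat on 2000 variable genes, and deposited for each cell its UMI and gene count, mitochondrial percent, S and G2M score, phase, population and cluster. A further 8 columns of that annotation were not used. Rows lacking a symbol held 0.523% to 0.591% of UMIs and did not enter the totals.

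Counts were summed over the cells of a group within a library and expressed as CPM (pseudocount 1). Genes whose mean over both groups reached 20 CPM were compared and called at 1.5-fold. A gene under 20 CPM in 1 group could thus enter through the other, and this applies to every such count. Intervals are exact Poisson or Clopper-Pearson at 95%, and where no UMI was found the limit is that of 3 UMIs. PCR copies are removed by the UMI, and the intervals cover counting error only. No test was run, as each condition has 1 library, and cells are not replicates. Depth was 173405094 UMIs over 8643 barcodes (sensitive monoculture), 519475237 over 20227 (coculture) and 359599734 over 11502 (resistant monoculture), with median depths of 27622, 31521 and 35442 UMIs per annotated cell. Shares of cells with a UMI were taken after thinning to 10000 UMIs where so stated, which left out 3 of the other sensitive monoculture cells and no member. Scrublet was run anew (scanpy 1.11.5, score above 0.25) and removed no cell from the values reported. Positions and GC content were taken from GENCODE 44 (GRCh37 coordinates), which is newer than the annotation behind the counts.

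The genes named are, by rule, the 15 highest and 10 lowest against both neighbours, the 8 furthest above the next cluster, up to 3 genes per list with the largest ratio, 4 genes each way between the libraries, CDK4, CDK6 and the transgenes; members of the lipid, cytoskeleton, marker and stress lists are named as list members, and other exceptions are said to be chosen after seeing values. The cluster, the gene lists (42 lists, 978 of 990 entries matched, older symbols included) and the rules were chosen with earlier results of these data known. Alternatives changed the pseudocount, scaling, filters, cells, weights, depth and fold. Those without cells rich in SCGB2A2, and G1 cells only in coculture, were added after seeing the data. The summing and calling steps were tested on simulated data. Python 3.11.15, numpy 2.4.6, pandas 2.3.3, scipy 1.17.1, matplotlib 3.10.9 and, for TMM factors only, edgeR 4.0.16 in R 4.3.3 were used. A few members of the gene lists are counted in their lists but not reported here.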

Additional observations from a re-analysis of the deposited data

Results flagged for a closer look

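Barcodes that the authors did not annotate also included ones rich in SCGB2A2, outside the cells that the comparisons use. In the sensitive monoculture library 18 of 5314 unannotated barcodes had 10 or more SCGB2A2 UMIs (0.339%, 0.201 to 0.535), beside 18 of 3329 annotated cells (0.541%, 0.321 to 0.853), and 17 of these 18 were among the 4489 barcodes with a mitochondrial share of 30% or more. In the coculture library it was 25 of 11876 (0.211%, 0.136 to 0.311), 19 of them among 6172 such barcodes, beside 14 of 8351 annotated cells (0.168%, 0.0917 to 0.281). The marked barcodes had a median of 21524 and 17085 UMIs. In the resistant monoculture library 2 of 3945 were found (0.0507%, 0.00614 to 0.183), beside 4 of 7557 annotated cells (0.0529%, 0.0144 to 0.135). The shares of unannotated and annotated barcodes had overlapping intervals in all 3 libraries. Whether these barcodes would fall in cluster 12 was not tested.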

How the results depend on the processing

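No paired analysis was possible because each condition has 1 library. The counts of genes past the fold followed the threshold, the filter and the scaling. Higher than cluster 4 were 264 genes with a pseudocount of 10 CPM, 241 under TMM, 188 at a mean of at least 50 CPM, 1459 without a filter and 57 at 2-fold, and lower were 488 under TMM, 159 at 50 CPM, 1118 without a filter, 476 without mitochondrial and ribosomal protein genes and 53 at 2-fold. Higher than cluster 8 were 314 (pseudocount 10), 270 (50 CPM), 1432 (no filter) and 78 (2-fold), and lower were 234, 153, 1464 and 104, with 573 without mitochondrial and ribosomal protein genes. Higher than the other monoculture cells were 230 (pseudocount 10), 255 (TMM), 182 (50 CPM), 1250 (no filter) and 54 (2-fold), and lower were 206 (pseudocount 10), 155 (50 CPM), 1263 (no filter), 68 (2-fold) and 515 without mitochondrial and ribosomal protein genes. G1 cells only, doublet scores, mVenus cells only, per-cell weights, thinning to 5000 UMIs and leaving out cells rich in SCGB2A2 kept these counts within 1.5 times. In coculture, G1 cells only gave 675 higher and 412 lower, and leaving out cells rich in SCGB2A2 842 and 652.

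Of 354 list medians under an alternative, 317 moved by less than their counting spread, 36 moved further and 1 turned: that of the EGFR and MAPK feedback genes, at -0.031 without a filter, where 22 genes entered, against 0.60 over the 4 genes of at least 20 CPM. All 1599 values of named genes past the fold kept their direction and 1563 stayed past it. Of 22 values of the 2 list medians past the fold, 21 kept their direction and 13 stayed past it. With 2 transgene UMIs asked for, the rule the authors state, no resistant cell was in cluster 12 (0.0% in both libraries). G1 was 87.0% of all members on thinned cells, against 98.9% as deposited. The new calls were not made at full depth, so the parts of thinning and of the calling procedure cannot be told apart. At 100 CPM the distances from clusters 3, 4, 7 and 8 were 0.617, 0.501, 0.828 and 0.534, and that from cluster 7 was 0.738 without the S phase and G2M lists. Depth limits the coculture members most, 27 cells in which a gene of 20 CPM rests on few UMIs.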
